A study of Mus musculus with 32 samples.

Results

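The genes described are those that license origins of DNA replication: Mcm2, Mcm3, Mcm4, Mcm5, Mcm6 and Mcm7, Cdc6, Cdt1, Orc1 and Gmnn. They were chosen by gene symbol, 10 of the 16593 genes named on the array, and each was read from its brightest probe over all arrays. Licensing is the loading of the MCM helicase onto DNA before S phase. ORC, whose largest subunit is the Orc1 product, marks the origin, and Cdc6 and Cdt1 bring the ring of Mcm2 to Mcm7 proteins to it. Geminin, the product of Gmnn, then binds Cdt1 and blocks a second loading in the same cycle. Their mRNAs are made mainly in cells that divide and are known targets of the E2F transcription factors. In adult mice the spleen holds dividing lymphoid and erythroid cells, the testis has mitotic and meiotic germ cells, and most cells of lung and liver are not cycling.

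Male NIH Swiss mice aged 7 weeks received a single intravenous dose of CBL0137, a DNA-binding compound that acts on the histone chaperone FACT, at 30, 60 or 90 mg/kg, or the vehicle, 5% dextrose. Whole spleen, testis, lung and liver were collected 24 hours later, and no genotype or other agent is named. Organ and dose made 16 groups, each with 2 arrays of an Illumina BeadChip, 32 in all. Nothing in the labels says that replicate arrays are from different mice, and p-values here measure only how far these arrays vary, which may be technical. Replicate arrays had a Pearson r of 0.974 to 0.991, and each array had 54.8% to 55.6% of its probes above background. Markers of each organ were high in the arrays so labelled: summed B cell markers reached 22174.8 to 27006.2 in spleen, spermatid markers 165992 to 174416 in testis, lung epithelial markers 85898.4 to 100346 in lung and hepatocyte markers 67603.8 to 88290.6 in liver. Both vehicle spleen arrays also carried spermatid markers (21966 and 41008, against 642.3 to 10270 in treated spleens), and summed hepatocyte markers in lung ranged from 757.2 to 24157.4. Values are the deposited normalized intensities, and changes are differences of log2(intensity + 16) ± SE from limma, a scale that understates the change of dim probes.

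Of the 10 genes, 8 were above background in all 8 arrays of spleen and of testis. Mcm4, Mcm5, Mcm6 and Cdt1 were above it in all 32 arrays, Mcm2 in 29, Mcm3 in 26, Cdc6 in 24 and Mcm7 in 18. Orc1 (chr4:108575705-108616030, GRCm38.p6) was above background in 1 liver array at 90 mg/kg, at 19.6, and Gmnn (chr13:24751845-24761937) in 1 spleen array at 30 mg/kg, at 11.0. Each of these genes had a single probe, so no level or change of the ORC subunit or of geminin can be given. Counts below are over the 8 others in spleen and testis, and over 7 in lung and liver, where Mcm7 was above background in only 1 array each.

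RefSeq promoter windows on GRCm38.p6, from 250 bases before to 50 after the annotated start, were found for 8 of the 10 genes, and not for Mcm4 or Gmnn. Mcm7 has 2 windows. The E2F words searched on both strands were TTTCCCGC, TTTGGCGC, TTTCGCGC and TTTGCCGC. At least 1 of them lay in the windows of 7 of the 8 genes, Mcm2 being without one, against 2.26% of the 32851 mouse promoter windows of the same length. The windows of 4 genes (Mcm3, Mcm5, Mcm6 and Mcm7) held 2 or more, against 0.0974% of all windows. These counts are of genes and the shares are of windows, and 1 of the 2 Mcm7 windows held no E2F word. The only 2 matches in Mcm5 overlap on opposite strands, and such pairs count as 2 in the shares as well. The CCAAT box, letters CCAAT, was found for 6 of the 8 genes against 37.4% of windows, and the CHR word TTTGAA for Mcm2 alone, against 17.9%. Below are the windows of the 3 genes that passed the test in spleen at 90 mg/kg and of Mcm6, which did not. E2F matches are in capitals, and a capital run longer than 8 bases is a pair of overlapping matches on opposite strands. The windows are chr11:98907901-98908200 (plus strand) for Cdc6, chr1:20820263-20820562 (minus strand) for Mcm3, chr8:75109259-75109558 (plus strand) for Mcm5 and chr1:128359656-128359955 (minus strand) for Mcm6, each read 5′ to 3′ along the gene.
Cdc6: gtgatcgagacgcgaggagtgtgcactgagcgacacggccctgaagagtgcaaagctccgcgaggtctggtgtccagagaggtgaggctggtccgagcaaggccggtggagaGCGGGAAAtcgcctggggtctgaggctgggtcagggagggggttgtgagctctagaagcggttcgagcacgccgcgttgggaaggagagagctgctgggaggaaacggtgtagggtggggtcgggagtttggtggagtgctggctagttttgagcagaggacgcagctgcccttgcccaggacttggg
Mcm3: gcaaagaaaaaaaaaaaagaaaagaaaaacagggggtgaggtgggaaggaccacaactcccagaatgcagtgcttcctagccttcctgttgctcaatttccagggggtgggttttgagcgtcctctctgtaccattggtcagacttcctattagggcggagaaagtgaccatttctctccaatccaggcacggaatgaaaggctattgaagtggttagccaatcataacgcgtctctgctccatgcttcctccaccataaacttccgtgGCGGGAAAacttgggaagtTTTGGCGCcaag
Mcm5: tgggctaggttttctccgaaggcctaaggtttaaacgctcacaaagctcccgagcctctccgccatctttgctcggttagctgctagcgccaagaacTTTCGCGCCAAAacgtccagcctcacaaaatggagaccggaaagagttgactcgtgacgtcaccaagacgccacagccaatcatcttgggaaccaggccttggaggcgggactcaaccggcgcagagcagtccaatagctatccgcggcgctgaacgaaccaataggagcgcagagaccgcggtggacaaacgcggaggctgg
Mcm6: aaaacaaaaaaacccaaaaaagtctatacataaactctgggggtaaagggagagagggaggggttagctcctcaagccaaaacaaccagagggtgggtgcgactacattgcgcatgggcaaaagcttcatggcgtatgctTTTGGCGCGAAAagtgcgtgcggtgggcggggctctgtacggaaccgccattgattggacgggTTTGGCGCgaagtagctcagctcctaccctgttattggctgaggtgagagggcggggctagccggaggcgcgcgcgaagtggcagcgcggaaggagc

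Counting the annotated start as 1, the Cdc6 match begins at -138, and the pair in Mcm5 at -153 and -149. The Cdc6 window lies wholly inside the gene's span, chr11:98907709-98923942. Its annotated start, and the match, are thus downstream of the first base of that span. The Orc1 window and 1 of the Mcm7 windows also lie wholly inside their genes. The Mcm6 window has a pair at -110 and -106 and a further match at -47. In Mcm3 both matches lie after the start, at 20 and 39. One of the matches in Mcm7, at 17, shares a base with a CCAAT box at 24. A match is a run of letters, and no binding was measured here.

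**Figure D1:**
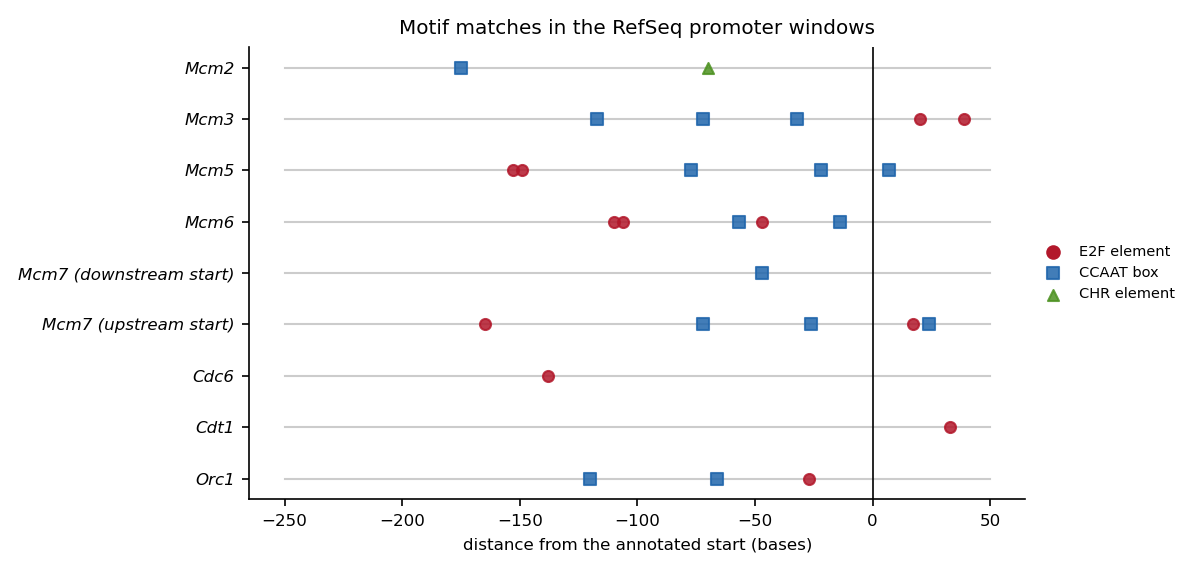
Positions of E2F, CCAAT and CHR words in the 9 RefSeq promoter windows of 8 licensing genes, in bases from the annotated start (vertical line); each point is 1 match on either strand. E2F matches appear for every gene but Mcm2 and in 1 of the 2 windows of Mcm7.

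In vehicle-treated mice, licensing genes had their highest signal in the spleen, with Mcm7 as the exception. All 8 measured genes were higher in spleen than in lung and than in liver, where 45.3% and 58.8% of the 12362 genes tested differed in either direction, 23.8% and 33.8% being higher in spleen. With its vehicle lung and liver arrays not above background, Mcm7 passed the filter only through spleen and testis. Its place among these 8 adds nothing to the bounds given below. Spleen exceeded testis for 7 of the 8, against 63.6% of genes that differed and 33.8% that were higher in spleen. The median difference of the 8 genes was 2.85 over lung, 3.87 over liver and 2.63 over testis on the log2 scale, and the median over all genes was 0.05, 0.10 and 0.07. In bulk tissue, fewer cells of a type and less RNA per cell cannot be told apart.

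Mcm5 (chr8:75109468-75128439), a helicase subunit, read 3281.1 and 1960.3 in the vehicle spleens, 434.4 and 288.2 in lung, 328.8 and 313.2 in testis, and 54.6 and 48.5 in liver. The spleen exceeded the liver by 5.24 ± 0.28 (adjusted p = 1.93e-06) and the testis by 2.92 ± 0.28 (adjusted p = 3.08e-05). Lung and testis values overlapped and did not pass (adjusted p = 0.694), while both exceeded liver. Mcm4 (chr16:15623897-15637400), also a helicase subunit, had another order: 4278.3 and 2400.6 in spleen, 765.7 and 661 in lung, 287.9 and 260.6 in testis, and 145.4 and 138.6 in liver. Each neighbouring pair in that order passed the test, the closest being testis over liver at 0.88 ± 0.27 (adjusted p = 0.018).

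Mcm7 (chr5:138164583-138172111) read 190.2 and 63.9 in the vehicle spleens and 185.8 and 280.2 in the vehicle testes. These overlapped, and the difference did not pass (spleen minus testis -0.93 ± 0.40, adjusted p = 0.0742). In lung and liver the vehicle arrays were not above background, so only bounds can be given, against the higher of the probe's own signal and the lowest signal above background: spleen was at least 5.33-fold above either organ and testis at least 10.1-fold. Mcm7 was thus the single helicase gene whose testis signal reached that of the vehicle spleen.

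For the other genes the second organ varied. Cdt1 (chr8:122568015-122573130), the MCM loader, read 961.6 and 462.5 in spleen against 38.7 to 100.6 in the 6 arrays of the other organs, which did not pass against each other (adjusted p = 0.25 to 0.928). Cdc6 (chr11:98907709-98923942), the ATPase that loads MCM with ORC, read 375.8 and 117.9 in spleen, 51.2 and 36.2 in testis, 19.3 and 9.6 in lung, and 13.3 and 1.9 in liver. Its spleen signal exceeded that of testis by 1.95 ± 0.48 (adjusted p = 0.00654), while testis and lung, and lung and liver, did not pass against each other (adjusted p = 0.101 and 0.524). Mcm2 (chr6:88883474-88898780) and Mcm6 (chr1:128331575-128359705) were above liver in lung (adjusted p = 0.0374 and 0.00363), and in testis Mcm6 was above liver while Mcm2 was not called (adjusted p = 0.000296 and 0.0894). Mcm3 (chr1:20802966-20820312) was higher in testis than in lung by 0.89 ± 0.31 (adjusted p = 0.0317). In all, testis exceeded liver for 6 of the 8 genes, where 32.5% of all genes were higher in testis. Lung exceeded liver for 4 genes, where 29.7% of all genes were higher in lung. Testis exceeded lung for 2 (Mcm3 and Mcm7) and was below it for Mcm4, where 30.3% of all genes were higher and 37.7% lower. Both testis counts include Mcm7, which was not above background in the vehicle lungs and livers.

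**Figure D2:**
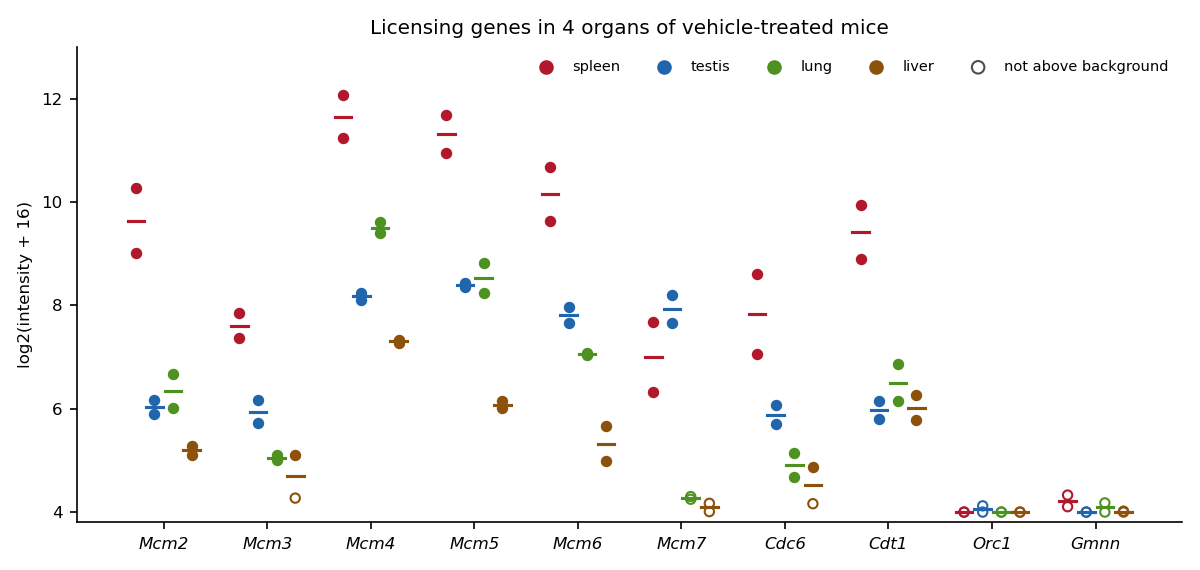
Signal of the 10 licensing genes in the vehicle arrays of 4 organs on the log2(intensity + 16) scale; points are arrays, open points are not above background and lines are means of 2 arrays. Spleen points lie above the other organs except for Mcm7, and Orc1 and Gmnn are not above background in any organ.

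CBL0137 at 60 and 90 mg/kg was accompanied by lower signal of every measured licensing gene in the spleen. At 90 mg/kg all 8 changes were negative, with a median of -1.42 against 0.08 over all 11023 genes, and 3 passed the test: Cdc6, Mcm5 and Mcm3. Of all genes tested, 4.29% passed at this dose, 2.19% being lower and 2.1% higher. All 8 had an unadjusted p under 0.05, where 11.4% of all genes were lower at that threshold. At 60 mg/kg the median was -1.23 and none passed, where 1.91% of all genes did. All 8 had an unadjusted p under 0.05 at that dose, against 11% of all genes lower at that threshold, and the smallest adjusted p was 0.0526. At 30 mg/kg the median was -0.34, none passed and none had an unadjusted p under 0.05, where 3.15% of all genes passed and 12.8% had such a p. Those that passed at 30 mg/kg were mostly lower, 2.99% of all genes against 0.154% higher. The vehicle spleens also carried testis signal, and its part in the shares of all genes at each dose is not given. Both treated arrays lay below both vehicle arrays for 8 of 8 genes at 60 and at 90 mg/kg, against 21.4% and 21.5% of all genes, and for 0 of 8 at 30 mg/kg, against 15.6%.

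Cdc6, the loader, had the largest change of the 8. Its spleen signal was 375.8 and 117.9 with vehicle, 102.4 and 244 at 30 mg/kg, 27.5 and 30 at 60 mg/kg, and 24.7 and 13.5 at 90 mg/kg. The 4 arrays of the upper doses lay far below the rest, and the arrays at 30 mg/kg were within the vehicle range or just under it. At 90 mg/kg the mean was 7.74% of the vehicle mean, and the log2 signal of Cdc6 fell by 2.72 ± 0.52 (adjusted p = 0.0398), rank 38 from the lowest of 11023 genes. At 60 mg/kg the change was -2.36 ± 0.52 (adjusted p = 0.0548). Cdt1, which works beside Cdc6, read 961.6 and 462.5 with vehicle, 458.8 and 734.5 at 30, 358.3 and 313.3 at 60, and 247.6 and 246.9 at 90 mg/kg. Its arrays at 90 mg/kg were below those at 60 mg/kg, and its change there was -1.38 ± 0.35 (adjusted p = 0.0611).

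Among the helicase genes, Mcm5 read 3281.1 and 1960.3 with vehicle, 1663.8 and 2317.2 at 30, 964.2 and 1009.5 at 60, and 859.3 and 776 at 90 mg/kg. The vehicle and 30 mg/kg arrays overlapped, and the upper doses were separate from both. Mcm5 fell by 1.62 ± 0.28 at 90 mg/kg (adjusted p = 0.0347), to 31.2% of the vehicle mean. Mcm3 read 213.9 and 148.7 with vehicle, 140 and 152.1 at 30, 99.8 and 75.7 at 60, and 80 and 35.6 at 90 mg/kg. Its arrays at 60 and 90 mg/kg overlapped, and at the top dose Mcm3 fell by 1.47 ± 0.32 (adjusted p = 0.0476). Mcm4 just missed the threshold: its arrays read 4278.3 and 2400.6, then 1918.9 and 2652.3, then 1473.6 and 1400.7, and 1354.9 and 1250.9 at 90 mg/kg (-1.29 ± 0.29, adjusted p = 0.0508).

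Mcm2 read 1212.2 and 503.5 with vehicle and 415.6 and 786.9 at 30 mg/kg. It was 251.6 and 248 at 60 and 237.3 and 267.3 at 90 mg/kg, so the upper doses overlapped each other (-1.59 ± 0.42 and -1.58 ± 0.42, adjusted p = 0.0744 and 0.0666). Mcm7 read 190.2 and 63.9, then 84.4 and 89.3, then 40.7 and 34.4, and 34.1 and 33.1 at 90 mg/kg (-1.37 ± 0.38, adjusted p = 0.0739). Mcm6, whose window holds the most E2F words of those printed, had the smallest change at 90 mg/kg. Its arrays read 1628.5 and 774.2 with vehicle, 749.9 and 1314.5 at 30, 456.3 and 506.2 at 60, and 597.2 and 497.2 at 90 mg/kg (-1.02 ± 0.38, adjusted p = 0.141). The upper doses of Mcm6 overlapped. Its other probes above background in every array gave -1.31 and -0.49 at 90 mg/kg, and -1.33 and -1.12 at 60 mg/kg, where the probe used gave -1.20. A dimmer Cdc6 probe, above background in 4 spleen arrays, gave -1.10 at 90 mg/kg.

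**Figure D3:**
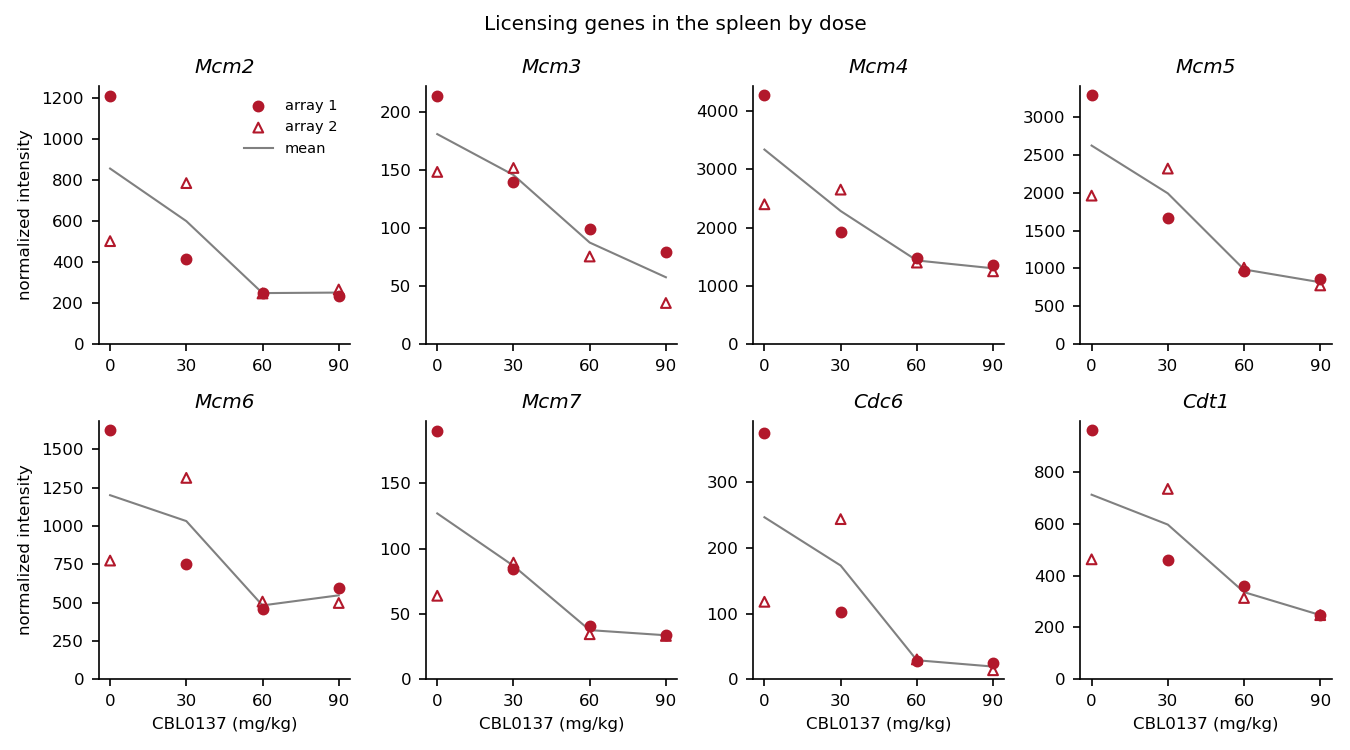
Normalized intensity of 8 licensing genes in the 8 spleen arrays by CBL0137 dose, 0 being vehicle; circles and triangles are the arrays labelled 1 and 2, and lines join the means of 2 arrays. At 60 and 90 mg/kg every point lies below both vehicle points, and vehicle array 1 is the highest point in each panel.

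A linear slope over the 4 doses passed in the spleen for 7 of the 8 genes, where 5.21% of all genes passed and 1.69% passed downward. Cdc6 fell by 1.01 ± 0.18 per 30 mg/kg (adjusted p = 0.0238) and Mcm5 fell by 0.58 ± 0.09 (adjusted p = 0.0141). The slope of Mcm6 was -0.41 ± 0.13 (adjusted p = 0.1). The means at 60 mg/kg were 11.6% to 48.4% of the vehicle mean over the 8 genes, and those at 90 mg/kg 7.74% to 45.5%, while at 30 mg/kg they were 68.4% to 85.9%.

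The arrays within the vehicle group, and those within the 30 mg/kg group, differed in one direction across these genes. Vehicle array 1 exceeded array 2 for all 8, by 1.44-fold to 3.19-fold, and at 30 mg/kg array 2 exceeded array 1 for all 8, by 1.06-fold to 2.38-fold. The lower vehicle array still exceeded the higher array at 90 mg/kg for each gene, by 1.30-fold to 4.77-fold. Without vehicle array 1, none of the 8 passed at 90 mg/kg, the median was -0.92 and Cdc6 was -1.95. Without vehicle array 2, 6 passed and the median was -1.94. Leaving out any other spleen array left 0 or 1 gene past the threshold, and with the replicate number as a block none passed (Cdc6 adjusted p = 0.0697). The slope passed for 0 of the 8 without vehicle array 1 and for 0 without array 2 at 90 mg/kg. It passed for 3 without either array at 60 mg/kg or without array 1 at 90 mg/kg, and for 4 with the replicate block.

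Proliferation and erythroid markers were lower along with the licensing genes in the spleen at 90 mg/kg. Macrophage markers were higher, and B cell and T cell markers changed little. The summed signal of the 10 licensing genes was 12145.7 and 6432.8 with vehicle, 5544.8 and 8290.9 at 30, 3676.7 and 3623.7 at 60, and 3437.6 and 3122.5 at 90 mg/kg. Proliferation markers, genes of mitosis such as Mki67 and Top2a, gave 18072.3 and 8964, then 8960.8 and 14090.5, then 3402.8 and 3435.1, and 3578 and 3871.9, and thus had the same high and low arrays within vehicle and 30 mg/kg. Of 12 proliferation markers tested, 7 were lower at 90 mg/kg (median -1.59), where 2.19% of all genes were. Erythroid markers summed to 53642.2 to 77948.5 with vehicle and 25320.9 to 45031.3 at 90 mg/kg, with 5 of 16 lower (median -2.12). B cell markers stayed between 22174.8 and 27006.2 in all 8 arrays, with 1 of 10 lower (median -0.14), and T cell markers had 0 of 10 called and 2 with an unadjusted p under 0.05, both upward (median 0.23), where 13.6% of all genes were higher at that threshold. Macrophage markers summed to 11979.2 and 13817 with vehicle and to 20731.9 and 23224.5 at 90 mg/kg, with 6 of 10 higher (median 1.12), where 2.1% of all genes were. The part of these cell types in the licensing result was not tested. The spermatid signal of the vehicle spleens was higher in array 2, the array with lower licensing signal. With a testis share subtracted, estimated from 72 probes bright in testis as 2.74% and 5.70% of the testis level in the vehicle spleens, the median at 90 mg/kg was -1.42 and 2 of the 8 genes passed (Mcm5 and Cdc6).

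**Figure D4:**
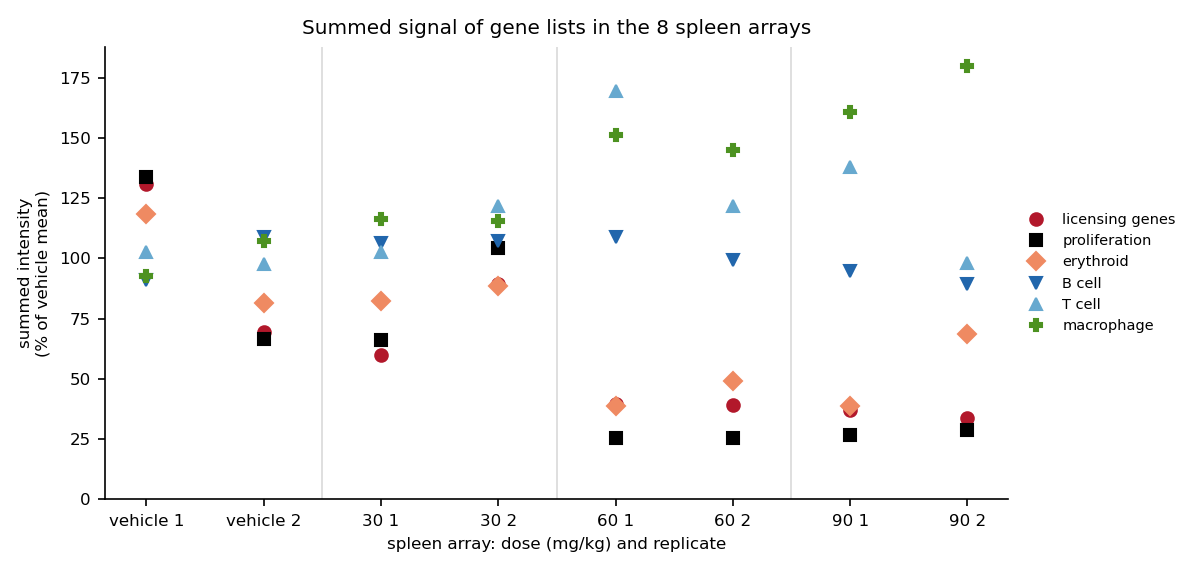
Summed intensity of the licensing genes and of 5 marker lists in each spleen array, as a percentage of the mean of both vehicle arrays. Licensing genes and proliferation markers lie nearly together in the vehicle and 30 mg/kg arrays, both and the erythroid markers are lower at 60 and 90 mg/kg, and B cell markers stay near the vehicle level.

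Some other genes of the replication pathway fell in the spleen too. Of all genes tested, 2.19% were lower and 2.1% higher at 90 mg/kg, and 1.15% and 0.753% at 60 mg/kg. Of 13 other origin genes tested, 1 passed at each of these doses: Cdc45, a partner of the active MCM helicase, fell by 1.48 ± 0.24 (adjusted p = 0.0325), and by 1.43 ± 0.24 at 60 mg/kg (adjusted p = 0.0378). Their median at 90 mg/kg was -0.57 and 11 of 13 were negative. Mcm10, which acts when the helicase is switched on, was at -1.62 ± 0.40 (adjusted p = 0.0571), and the ORC subunit genes split, with Orc6 at -1.28 ± 0.39 (adjusted p = 0.0912) and Orc3 at 0.49 ± 0.20 (adjusted p = 0.178). Of 29 fork and nucleotide genes, 6 were lower at 90 mg/kg and none higher, with a median of -0.67, and 2 were lower at 60 mg/kg. Tyms, which makes thymidylate, fell by 2.32 ± 0.48 (adjusted p = 0.0442). Tk1, the thymidine kinase, fell by 2.05 ± 0.45 (adjusted p = 0.0482), and Chaf1b, a subunit of a histone chaperone of the replication fork, fell by 1.73 ± 0.36 (adjusted p = 0.0446). Uhrf1, which guides maintenance methylation, fell by 1.68 ± 0.37 (adjusted p = 0.0484). Pcna, the sliding clamp, did not pass (-0.67 ± 0.39, adjusted p = 0.328). At 60 mg/kg the called fork genes were Lig1, the replicative ligase (-1.62 ± 0.30, adjusted p = 0.0473), and Chaf1a, the partner of Chaf1b (-1.47 ± 0.28, adjusted p = 0.0486).

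Of 25 genes that control licensing, 4 were lower and 1 higher at 90 mg/kg, with a median of -0.62, against 2.19% and 2.1% of all genes. At 60 mg/kg 1 was lower and 1 higher. Cdk1, the mitotic kinase, fell by 2.37 ± 0.47 (adjusted p = 0.0408), and Cdc20, an activator of the anaphase-promoting complex, fell by 1.56 ± 0.30 (adjusted p = 0.0398), and by 1.70 ± 0.30 at 60 mg/kg (adjusted p = 0.0434). Dtl, the adaptor of the ubiquitin ligase that destroys Cdt1 protein, fell by 0.94 ± 0.18 (adjusted p = 0.0398). Cdkn1a, the CDK inhibitor p21, was the gene that rose, by 0.79 ± 0.17 (adjusted p = 0.0466), and by 0.88 ± 0.17 at 60 mg/kg (adjusted p = 0.0486). None of the E2F genes tested passed: E2f1 was at -0.93 ± 0.45 and E2f2 at -1.22 ± 0.42 (adjusted p = 0.247 and 0.119).

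In testis, lung and liver no licensing gene passed at any dose or for the slope. Few of all genes did either: 0% passed at each dose except 0.00932% in testis at 90 mg/kg, and slopes passed for 0%, 0.0354% and 0.0087% in testis, lung and liver. The number of licensing genes with an unadjusted p under 0.05 at 90 mg/kg was 1 in each of these organs. It was lower in testis and lung, where 3.75% and 7% of all genes were lower at that threshold, and higher in liver, where 5.93% were. The medians at 90 mg/kg were -0.06 in testis, -0.42 in lung and -0.07 in liver, against -0.01 over all genes in each.

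In lung all 7 measured genes had negative changes at 90 mg/kg. Mcm5 read 434.4 and 288.2 with vehicle, 232.5 and 241.2 at 30, 192 and 237.8 at 60, and 205.8 and 176.7 at 90 mg/kg, so that every treated array lay below both vehicle arrays (-0.84 ± 0.24 at 90 mg/kg, adjusted p = 0.231). Mcm6 read 116.4 and 119.5 with vehicle and 78.6 and 75 at 30 mg/kg. It was 10.2 and 60.9 at 60 mg/kg and 80.6 and 74.5 at 90 mg/kg, again below vehicle in each treated array, with 1 array at 60 mg/kg far below the others (-1.58 ± 0.43 there, adjusted p = 0.32). Both treated arrays lay below both vehicle arrays for 3 of 7 genes at 90 mg/kg, against 24% of all genes. Other markers were lower with them. Proliferation markers summed to 1374.8 and 1053.6 in the vehicle lungs and 638 and 535.7 at 90 mg/kg, and B cell markers to 1212.5 and 513.3 against 468.5 and 473.4. Spermatid markers summed to 8559.2 and 5646.4 in the vehicle lungs and 1148.5 and 156 at 90 mg/kg. With the testis share subtracted, estimated at 0.956% and 0.606% of the testis level in the vehicle lungs, the median of the licensing genes at 90 mg/kg was -0.41 and none passed. Summed erythroid markers were 43940.8 and 43389.7 with vehicle and 40706.1 and 42182.9 at 90 mg/kg, with a median change of -0.41. None of these marker genes passed in lung. Hepatocyte markers, at 3259.9 and 18121.8 in the vehicle lungs and 21368.9 and 757.2 at 90 mg/kg, varied within both groups. The part of these cell types in the lung values was not tested.

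In testis Mcm6 was again lower in each treated array, at 186 and 234.7 with vehicle, 139.9 and 159.2 at 30, 179.2 and 164.9 at 60, and 151.9 and 139.5 at 90 mg/kg. The change at 90 mg/kg was -0.48 ± 0.16 (adjusted p = 0.648). At that dose both treated testis arrays lay below both vehicle arrays for 3 of 8 genes (Mcm4, Mcm6 and Cdc6), against 19.2% of all genes. Mcm7, at its brightest in this organ, read 185.8 and 280.2 with vehicle and 241 and 231 at 90 mg/kg, within the vehicle range (0.04 ± 0.21, adjusted p = 0.955). In liver Mcm6 went the other way at the top dose, reading 15.6 and 34.7 with vehicle and 68.5 and 40.9 at 90 mg/kg (0.79 ± 0.31, adjusted p = 0.407). Mcm2 in liver read 18.6 and 22.8 with vehicle and was not above background in either array at 60 mg/kg (adjusted p = 0.678), then 19.9 and 32.1 at 90 mg/kg.

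No member of the pathway lists passed in these organs at 90 mg/kg, and the 2 with the smallest p of each list were as follows. In lung, Orc3 was at 0.50 ± 0.23 and Cdc7, the kinase that fires origins, at -0.36 ± 0.21 (adjusted p = 0.477 and 0.573). Clspn, a checkpoint mediator at the fork, was at -0.98 ± 0.27 and Tk1 at -1.04 ± 0.29 (adjusted p = 0.21 for both). Cdc20 was at -0.91 ± 0.23 and Cdkn1a at 1.08 ± 0.37 in lung (adjusted p = 0.181 and 0.307). The Cdkn1a value was larger in liver, at 3.31 ± 0.32, and just missed the threshold (adjusted p = 0.0506), and Rbl2, a pocket protein that binds E2F, was at 1.05 ± 0.22 (adjusted p = 0.19). The other liver values were -0.86 ± 0.29 for Mcm10, 0.68 ± 0.37 for Gins3, 0.88 ± 0.32 for Lig1 and 0.46 ± 0.20 for Fen1, with adjusted p from 0.342 to 0.554. In testis all 6 lay between -0.50 and 0.28. They were Cdc7 (-0.41 ± 0.18), Gins3 (-0.32 ± 0.16), the maintenance methyltransferase gene Dnmt1 (-0.50 ± 0.18), Clspn (-0.38 ± 0.16), E2f5 (-0.43 ± 0.17) and Dtl (0.28 ± 0.15), with adjusted p from 0.648 to 0.667.

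**Figure D5:**
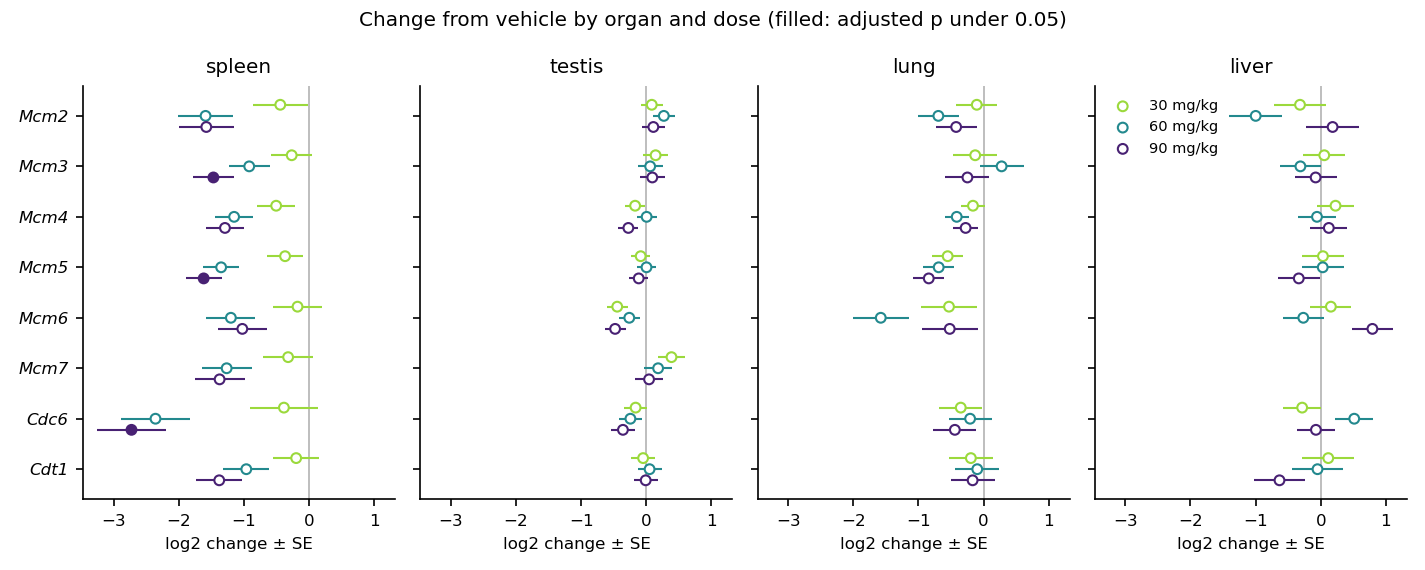
Change of 8 licensing genes from vehicle in 4 organs at 3 doses of CBL0137, as log2 difference with the SE of limma as bars; filled points have an adjusted p under 0.05. The filled points are Cdc6, Mcm5 and Mcm3 in spleen at 90 mg/kg, and Mcm7 is not drawn in lung and liver, where it was at background.

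The change at 90 mg/kg was also compared between organs in 1 fit of all 32 arrays. Mcm7, at background in lung and liver, was left out of every comparison with these organs. The change of Cdc6 was lower in spleen than in testis (difference -2.37 ± 0.56, adjusted p = 0.032). Against liver the difference was -2.65 ± 0.56 (adjusted p = 0.0106), and against lung it did not pass (-2.28 ± 0.56, adjusted p = 0.0571). The liver signal of Cdc6 was above background in 1 of 2 arrays with vehicle and in 1 of 2 at 90 mg/kg. Its vehicle means on the log2 scale, 4.52 in liver and 4.91 in lung, lay near the floor of 4. In testis the vehicle mean of Cdc6 was 5.89. A fall as large as that in spleen (-2.72) could not have been seen in any of these 3 organs. These comparisons therefore cannot show that Cdc6 responded more in spleen. Mcm5 fell further in spleen than in testis (-1.50 ± 0.37, adjusted p = 0.0381). The change of Mcm4 was lower in spleen than in liver (-1.41 ± 0.34, adjusted p = 0.0198). Of 8 genes, 2 differed between spleen and testis, where 2.47% of all genes did. Of 7 genes, 2 differed between spleen and liver, against 4.85%, and 0 between spleen and lung, against 0.79%. Between spleen and lung 5 of the 7 were lower at an unadjusted p under 0.05, as were 5.96% of all genes. All differences of the measured genes were negative in these 3 comparisons, which share the spleen arrays. For some genes the floor fixed this sign. Besides Cdc6, they were Mcm3 against lung and liver (vehicle means 5.05 and 4.69, spleen change -1.47) and Mcm2 against liver (5.20, spleen change -1.58). For these genes the sign does not show which organ responded more, and the counts above include Cdc6. Between testis, lung and liver none of the 7 differed (smallest adjusted p = 0.29), where 0.014% to 0.489% of all genes did. An unadjusted p under 0.05 was found for 1 gene, lower, in testis minus liver and in lung minus liver, against 5.81% and 6.98% of all genes, and for 0 between testis and lung, against 7.23%.

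Over the 16 group means, the profile of the licensing genes was their mean z-score, with Orc1 and Gmnn included though at background. Fen1, the flap endonuclease of lagging-strand synthesis, was most like it of 13182 genes (Pearson r = 0.968), followed by the histone gene H2ac11 (0.965), the mRNA export adaptor gene Alyref (0.960), Gins3, a subunit of the GINS helicase partner (0.957), and the histone gene H2ac20 (0.954). The lowest r were those of Tex264 (-0.985), Tmem201 (-0.952) and Ciart (-0.944). Fen1 read 2570 and 1335.2 in the vehicle spleens, 682.3 and 663.6 at 60 mg/kg, and 676.8 and 682.3 at 90 mg/kg, so that the arrays of the upper doses overlapped and lay below both vehicle arrays. Each of the 10 licensing genes was set against the mean of the others: r was 0.813 to 0.959 for 7 of them, 0.396 for Mcm7, whose testis signal is high, and 0.395 and -0.132 for Gmnn and Orc1, which were at background. The 16 points share arrays and organ differences, and no test is attached to these correlations.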

How the data were processed

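Total RNA was labelled as biotinylated cRNA and hybridised to Illumina arrays, per the labels' protocols. The deposited table holds normalized intensity values that the authors exported from GenomeStudio (no version stated), per the submitters' processing notes. Once sorted, the values of any 2 arrays differed by at most 1.0, as quantile normalization over all 32 arrays leaves them, which can damp changes that many genes share, and values below 0 show a background subtraction. In a second, non-normalized table, 64 columns of per-sample values were not used.

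Of 25697 probes 23978 had 1 gene symbol in GEO's platform annotation, 0 had several and 1719 had none. Intensities were set to at least 0, increased by 16 and log2-transformed, and the brightest probe stood for each gene. A probe counted as above background at 1.645 times the array's noise SD, estimated from its values below 0 (8.05 to 8.29), and genes above it in at least 2 of the 8 arrays of an organ were tested. In the fit over all arrays, a licensing gene was compared between 2 organs only if it passed this filter in both. Each organ had its own fit of dose group means, or of a slope per 30 mg/kg, by lmFit and eBayes (limma 3.58.1, R 4.3.3); tests were two-sided, and adjusted p-values are Benjamini-Hochberg values over all genes, with calls at 0.05. The scripts were tested on simulated data. With arrays, signal over background and the number of arrays limit the precision. Alternatives changed the offset, filter, probes, normalization, fit and arrays.

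Replicate numbers were not used to pair the samples, as no label ties them. Deviations of same-numbered arrays correlated at -0.234 to 0.405 between doses of an organ, the highest for spleen at 60 against 90 mg/kg. Between organs at 1 dose they correlated at -0.222 to 0.161. Whether same-numbered organs came from the same mouse is not stated. The genes and lists were chosen with earlier results of these data known. All 10 licensing genes are described, with the 4 called members of each pathway list with the smallest p (or 2 where none passed) and the 5 genes most and 3 least like the licensing profile. Mcm10, Orc6, Orc3, Pcna, E2f1 and E2f2 were named after their values were seen. Other steps used Python 3.11.15 and pandas 2.3.3. Spermatocyte, spermatid, hepatocyte and lung epithelial markers checked for other organs.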

Additional observations from a re-analysis of the deposited data

Results flagged for a closer look

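The change at 90 mg/kg differed between organs, by a test of the difference in limma over all 32 arrays, for 3 of the licensing genes. For Cdc6 the log2 change in spleen minus that in testis was -2.37 ± 0.56 (adjusted p = 0.032), and minus that in liver -2.65 ± 0.56 (adjusted p = 0.0106). For Mcm5 it was -1.50 ± 0.37 against testis (adjusted p = 0.0381). For Mcm4 it was -1.41 ± 0.34 against liver (adjusted p = 0.0198). The Cdc6 probe was above background in 1 of the 2 liver arrays with vehicle and at 90 mg/kg. Its vehicle liver mean, 4.52 on the log2 scale, lay near the floor. In testis the vehicle mean of Cdc6 was 5.89, and the floor is 4. A fall as large as that in spleen (-2.72) could not have been seen in liver or testis. Each value rests on 2 vehicle spleen arrays that differ in these genes.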

How the results depend on the processing

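All 152 alternative values of the 8 genes at 60 mg/kg in spleen were negative, as were all 152 at 90 mg/kg, with medians from -1.72 to -0.71 and from -1.94 to -0.92. Many of these values repeat the reported one and add nothing to it. The filter, the arrays fitted together, the variances, the replicate block and arrays of other doses cannot move a difference of group means. How many passed depended on the settings. At 60 mg/kg none passed as reported; 2 did with an offset of 50, 1 with the mean of all probes, 6 in a fit over all 32 arrays, 1 after cyclic loess, 2 with trended and robust variances, and 0 to 5 when 1 array was left out, 5 without vehicle array 2. At 90 mg/kg 3 passed as reported; 5 did with the offset of 50, 0 without the filter, 7 in the fit over all arrays, 5 with trended and robust variances, 0 with the replicate block, 0 in a fit of only the arrays compared, and 0 to 6 when 1 array was left out. For the slope, 7 passed as reported, 2 without the filter, 4 with the replicate block and 0 to 7 with 1 array left out: 0 without vehicle array 1 or array 2 at 90 mg/kg, and 3 without either array at 60 mg/kg or array 1 at 90 mg/kg. With the mean of all probes Cdc6 was at -0.93 at 90 mg/kg (adjusted p = 0.0771), which averages in 3 dim probes.

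For the difference of the 90 mg/kg effect, the offset of 50 gave 5 genes in place of 2 for spleen minus testis, 2 in place of 0 for spleen minus lung and 6 in place of 2 for spleen minus liver, and the mean of all probes gave 1 for spleen minus testis and 1 for spleen minus liver. Between vehicle organs, leaving out 1 array gave 3 to 7 genes for testis minus liver, with 3 without testis array 2, and 2 to 5 for testis minus lung, with 5 without either spleen array. Where 1 array is left, its group is assumed to vary like the others. No alternative run gave a call of these genes at any dose in testis, lung or liver. No direction reversed, and the replicate block changed no other count past 1.5 times. The cause of these changes was not tested. The correction with neqc was not run, since the sample names of the non-normalized table repeat.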
